A study of Mus musculus with 23 samples.

Results

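The T cell receptor repertoire under trametinib with BGB-283 was compared with that under BGB-283 alone at the later of the times sampled, D11. The comparison takes all alpha (TRA) and beta (TRB) rows of 6 libraries, 3 combination and 3 BGB-283, out of 23 in the study. BGB-283 inhibits RAF kinases and trametinib inhibits MEK, the kinase that RAF activates, so both groups received the RAF inhibitor and only the combination group the MEK inhibitor. The material was RNA of a syngeneic mouse melanoma model grown from an Nras Q61R line, NIL, that had been given ultraviolet light to raise its mutation load. The tissue label names the melanoma line itself, while the receptors counted are those of T cells, and other markers were not measured. Doses, mouse strain and ages, and the event from which D11 is counted, are not given in the labels. Whether replicates are different mice is not stated either, so a p-value here measures the spread between libraries, which may be technical. For V and J segments that spread was estimated over all 23 libraries.

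A T cell carries 1 rearranged beta chain, joined from a V, a D and a J segment, and an alpha chain joined from a V and a J segment. The join forms the CDR3, the loop that touches the antigen peptide and that differs most between T cells. When a T cell is stimulated its daughters keep the same receptor, so a sequence that takes a large share of the repertoire marks an expanded clone. A clonotype is here a V segment, a J segment and a CDR3 amino acid sequence together, and it is called large at 1% or more of its chain's counts. Alpha and beta chains were counted separately, so which alpha went with which beta in a cell was not measured. The assay reads T cells alone, and in RNA of a whole sample fewer T cells and less receptor RNA per cell cannot be told apart.

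The receptors that dominated were these, shown because most of the results turn on them. Each line gives the largest TRB or TRA clonotype of a library where its CDR3 has 14 residues or fewer, and longer ones are described by their segments.
Combination replicate 1, TRBV13-2 with TRBJ2-3: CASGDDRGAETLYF
Combination replicate 2, TRBV3 with TRBJ2-7: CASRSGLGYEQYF
Combination replicate 3, TRBV19 with TRBJ1-1: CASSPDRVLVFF
BGB-283 replicate 1, TRBV19 with TRBJ1-4: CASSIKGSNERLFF
Combination replicate 1, TRAV12D-2 with TRAJ48: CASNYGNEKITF
Combination replicate 2, TRAV6-6V6D-6 with TRAJ48: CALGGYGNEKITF
Combination replicate 3, TRAV6D-5V6N-5 with TRAJ39: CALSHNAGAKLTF
BGB-283 replicate 1, TRAV6D-5V6N-5 with TRAJ6: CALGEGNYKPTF
BGB-283 replicate 2, TRAV13-2V13N-2 with TRAJ22: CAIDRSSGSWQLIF
BGB-283 replicate 3, TRAV14-2V14N-2 with TRAJ13: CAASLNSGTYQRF
A name such as TRAV6D-5V6N-5 is a joint name for segment copies that the authors' caller did not separate. In BGB-283 replicate 2 the largest TRB clonotype used TRBV12-1 with TRBJ1-3 and had 15 residues. In BGB-283 replicate 3 it used TRBV16 with TRBJ2-2 and had 17 residues. In combination replicates 1 to 3 the next largest TRB clonotypes used TRBV29 (13.4%), TRBV16 (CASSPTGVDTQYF, 8.39%) and TRBV5 (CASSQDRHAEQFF, 9.17%). In BGB-283 replicates 1 to 3 they used TRBV29 (11.8%), TRBV16 (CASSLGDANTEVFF, 7.02%) and TRBV16 (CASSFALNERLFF, 11.5%).

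Depth differed between the libraries. TRB counts were 151348, 320420 and 185978 in combination replicates 1 to 3, against 65577, 95077 and 211618 in BGB-283 replicates 1 to 3. TRA counts were 143391, 393802 and 192054 in combination libraries, against 116153, 149688 and 281467 in BGB-283 libraries. No value between 0 and 3 is listed, and in some libraries values pile up at 20, most in BGB-283 replicates 1 and 2. From this 1 molecule was taken to give up to 20 counts in every library, an inference from the values. On this estimate there were 8725, 18368 and 9857 TRB molecules in combination libraries, against 3466, 5289 and 11127 in BGB-283 libraries. Among values of 3 to 20, the share at exactly 20 was 9.56%, 4.67% and 7.66% in combination TRB, against 31.6%, 18.1% and 8.82% in BGB-283 TRB. In TRA it was 7.74%, 2.98% and 4.95% in combination libraries, against 29.2%, 18.9% and 9.17% in BGB-283 libraries. The pile-up was thus weakest in combination replicate 2, and the molecule scale may not fit all libraries alike. Equal counts may not be equal molecules, so clonotype numbers, clonality and the share of the 10 largest are given on both scales.

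Combination libraries held 2256, 4328 and 1074 TRB clonotypes, against 436, 1168 and 1062 in BGB-283 libraries. Combination replicates 1 and 2 lay above all BGB-283 libraries, while combination replicate 3 lay among them, so the groups overlapped. The means were 2553 ± 1647 and 889 ± 396 (SD, n = 3 each), and the ratio of geometric means was 2.69 (log2 1.43). The difference did not pass (p = 0.2, adjusted p = 0.70 over 14 measures, exact two-sided permutation test). With 3 against 3 libraries the smallest p this test can give is 0.1, so no library measure could have passed 0.05.

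After thinning each library to 65577 TRB counts, the numbers were 2201, 3764 and 1028 in combination libraries, against 436, 1166 and 1013 in BGB-283 libraries. The log2 difference was then 1.35 (p = 0.2, adjusted p = 0.70, exact permutation test), and at 3466 estimated molecules it was 0.68 (p = 0.2, exact permutation test). Without combination replicate 3 the detected numbers differed by 1.94 on the log2 scale, without combination replicate 2 by 0.93 and without BGB-283 replicate 1 by 0.97.

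The alpha chain ran the same way. Combination libraries held 1671, 3380 and 820 TRA clonotypes, against 528, 1124 and 1033 in BGB-283 libraries. Again combination replicates 1 and 2 were above every BGB-283 library and combination replicate 3 was not. The ratio was 1.96 (log2 0.97, p = 0.3, adjusted p = 0.70, exact permutation test). It was 0.94 on the log2 scale at 116153 counts and 0.63 at 6047 estimated molecules. Without combination replicate 2 it was 0.46, without BGB-283 replicate 1 0.63 and without combination replicate 3 1.48. TRB and TRA counts themselves differed by 0.92 and 0.38 on the log2 scale (p = 0.3 and 0.6, exact permutation test).

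**Figure D1:**
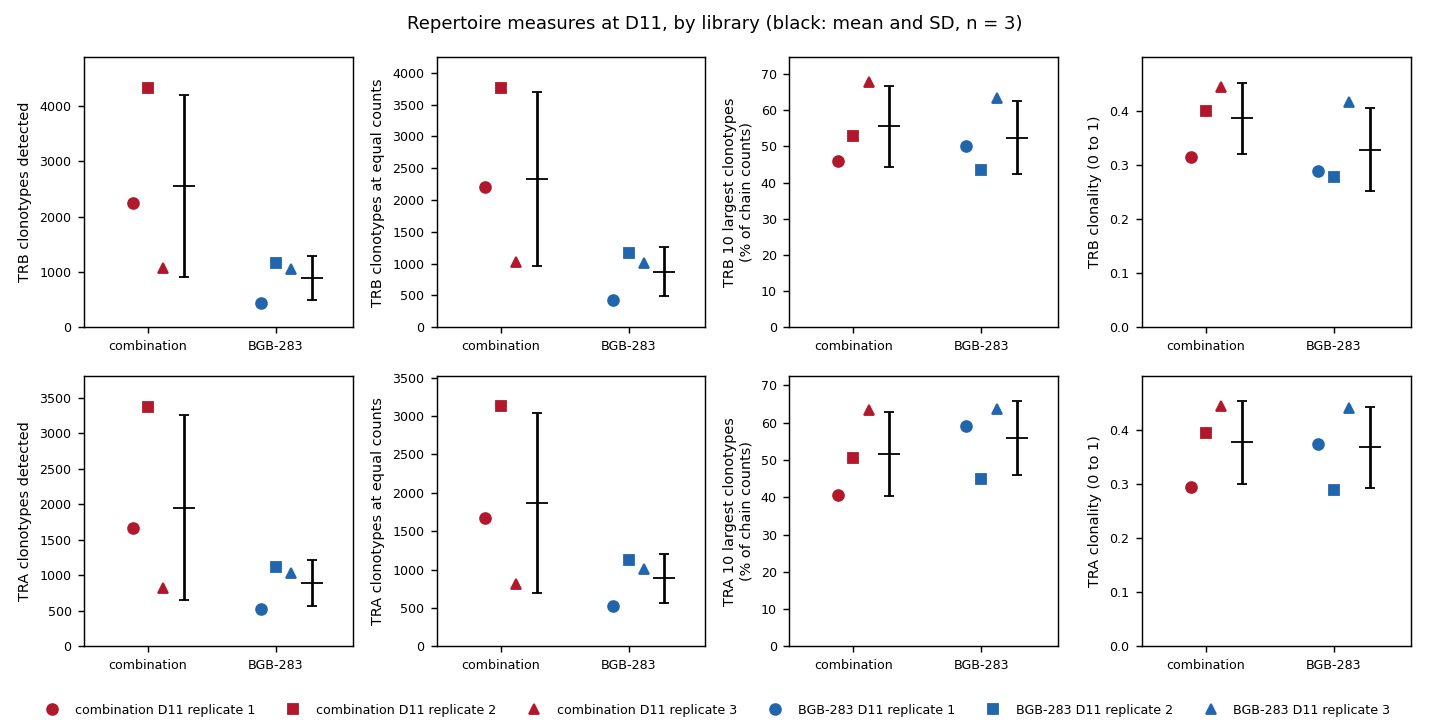
Clonotype number as detected and at equal counts, share of the 10 largest clonotypes (% of chain counts) and clonality (0 to 1) for TRB (top) and TRA (bottom), with 1 point per library and the mean and SD in black (n = 3). Combination replicates 1 and 2 have the highest clonotype numbers, and in every panel the groups overlap.

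At D4 combination libraries held 3584, 5172 and 3718 TRB clonotypes, against 833, 1370 and 1318 in BGB-283 libraries, a log2 difference of 1.84 without overlap. The D11 difference minus the D4 difference was -0.41 for TRB and -0.88 for TRA clonotypes, and neither passed (p = 0.755 and 0.46, exact permutation test over 400 assignments). Of the 14 library measures, 0 passed for the change between the days and the lowest adjusted p was 0.835. Of the same 14 at D11, 0 passed and 0 had groups without overlap (0.0%).

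The widest range was in the rarest clonotypes. Those below 0.01% of TRB counts numbered 1029, 3339 and 478 in combination libraries, against 42, 268 and 521 in BGB-283 libraries. The lowest count listed was 3 in every library, so the range of counts that falls below 0.01% is narrower in a shallow library. These numbers are thus not at equal depth, and how far depth sets them was not tested. Those between 0.1% and 1% numbered 53, 60 and 55 in combination libraries, against 150, 168 and 35 in BGB-283 libraries. BGB-283 replicates 1 and 2 thus had the most clonotypes of middle size, and they were also the shallowest libraries. A clonotype of 1 estimated molecule made up 57.0%, 61.8% and 49.8% of TRB clonotypes in combination libraries, against 39.9%, 50.5% and 48.0% in BGB-283 libraries. Some rare entries resemble a large clone: 77, 148 and 112 TRB clonotypes in combination libraries lay 1 residue from a large one of the same V, J and length, with under a twentieth of its counts, against 27, 40 and 153 in BGB-283 libraries. Leaving these out gave a log2 difference of 1.46 in TRB clonotypes detected.

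At the top of the distribution the groups overlapped. The largest TRB clonotype took 13.8%, 21.6% and 24.1% of counts in combination libraries, against 15.5%, 18.3% and 12.6% in BGB-283 libraries. The 10 largest took 46.0%, 52.9% and 67.9%, against 50.2%, 43.6% and 63.4%. Their means were 55.6% ± 11.2 and 52.4% ± 10.1 (SD, n = 3 each), a difference of 3.19 percentage points that did not pass (p = 0.6, adjusted p = 0.862, exact permutation test) and that was -2.95 points without combination replicate 3 and -1.20 points without BGB-283 replicate 2. In estimated molecules the shares were 50.1% ± 12.5 in combination and 49.1% ± 10.6 in BGB-283 libraries, a difference of 0.993 points (p = 0.9, exact permutation test). Each group had replicate 3 as its most dominated TRB repertoire.

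The number of TRB clonotypes needed to reach 50% of counts was 15, 7 and 4 in combination libraries, against 10, 26 and 7 in BGB-283 libraries. Clonality, which is 0 when all clonotypes are equal and 1 when a single one holds all counts, was 0.386 ± 0.066 in combination and 0.327 ± 0.076 in BGB-283 TRB, a difference of 0.0583 (p = 0.3, adjusted p = 0.70, exact permutation test). In estimated molecules it was 0.293 ± 0.072 and 0.276 ± 0.060, a difference of 0.0167 (p = 0.7, exact permutation test). Large TRB clonotypes numbered 10, 8 and 10 in combination libraries, against 11, 6 and 15 in BGB-283 libraries. Large TRA clonotypes numbered 15, 14 and 12, against 10, 15 and 16. The 10 largest TRA clonotypes took 40.7%, 50.6% and 63.3% of counts, against 59.1%, 44.8% and 63.8%, a difference of -4.35 points (p = 0.7, adjusted p = 0.862, exact permutation test) that was -5.68 points in estimated molecules. TRA clonality was 0.377 ± 0.076 and 0.368 ± 0.075 (p = 0.7, exact permutation test), and its difference turned negative in estimated molecules (-0.0185).

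**Figure D2:**
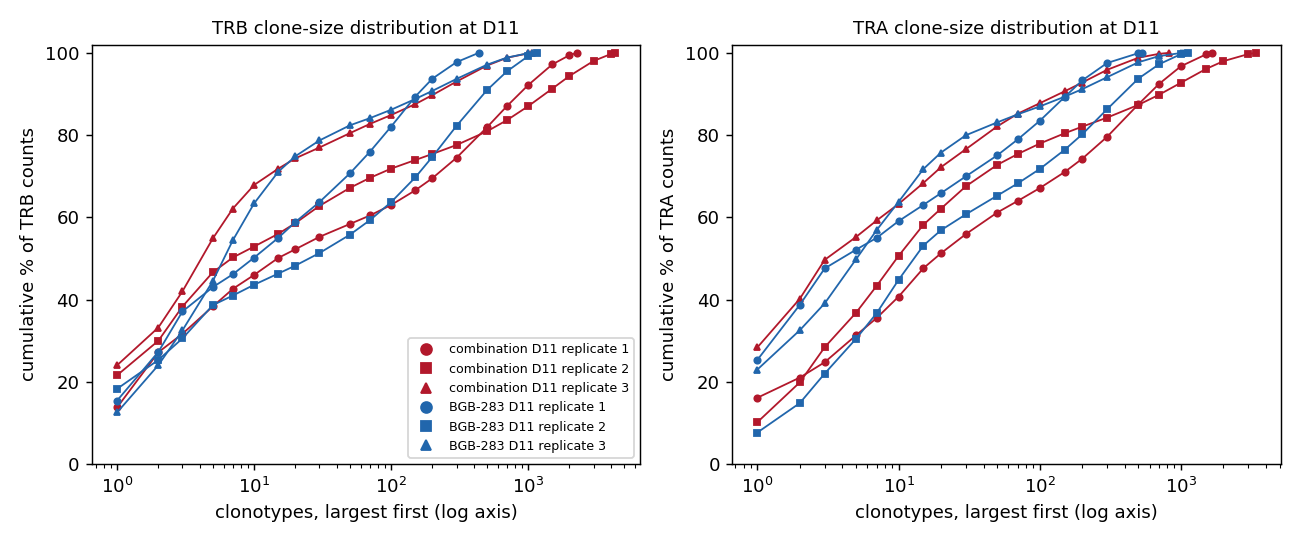
Cumulative share of TRB (left) and TRA (right) counts taken by clonotypes added from the largest down, on a log axis, with 1 line per library. In TRB, replicate 3 of both groups has the highest share at 10 clonotypes (67.9% and 63.4%), and the lines of combination replicates 1 and 2 run farthest to the right, to 2256 and 4328 TRB clonotypes.

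CDR3 length was close in the groups. The mean over TRB clonotypes, each counted once, was 13.93 ± 0.11 residues in combination and 13.95 ± 0.041 in BGB-283 libraries (p = 0.8, exact permutation test). For TRA it was 13.57 ± 0.091 and 13.59 ± 0.11 residues (p = 0.8, exact permutation test). Loops of 16 residues or more made up 13.9% ± 1.32 and 13.7% ± 1.29 of TRB clonotypes, and those of 12 or fewer 15.4% ± 1.26 and 14.9% ± 2.67.

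Nearly all clonotypes belonged to 1 library. Of 10177 TRB clonotypes in the 6 libraries, 98.7% were listed in 1 library, 131 in 2 or more and 0 in all 6. Of 8222 TRA clonotypes, 96.7% were listed in 1 library, 271 in 2 or more and 1 in all 6. The TRB clonotypes listed in both groups numbered 70, which is 0.921% of those in combination and 2.64% of those in BGB-283 libraries. For TRA there were 172, or 2.99% and 6.50%.

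Combination replicates 1 and 2 shared 37 TRB and 70 TRA clonotypes. The remaining pairs within the combination group shared 6 and 18 TRB clonotypes, and pairs within the BGB-283 group shared 5 to 6. Between groups the number was 3 to 17 for TRB and 12 to 56 for TRA. The pair with the most shared clonotypes was also the pair with the most clonotypes detected. The 37 shared TRB receptors made up 6.93% of the counts of combination replicate 1 and 22.6% of those of combination replicate 2.

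Most large clones were listed in 1 library, but a smaller share than of clonotypes of all sizes (98.7% for TRB and 96.7% for TRA). Among 28 large TRB entries in combination libraries, 24 (85.7%) were listed in none of the other 5 libraries, against 30 of 32 (93.8%) in BGB-283 libraries. Among 41 large TRA entries in each group, 26 (63.4%) and 25 (61.0%) were. No test was made of these shares. In all, 1 TRB and 4 TRA clonotypes were large in more than 1 of the 6 libraries.

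The TRBV3 and TRBJ2-7 clonotype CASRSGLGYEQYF was the only TRB receptor large in more than 1 of the 6 libraries. It took 4.51%, 21.6% and 0% of TRB counts in combination replicates 1 to 3, and was listed at 0 in all 3 BGB-283 libraries. Its 95% Wilson intervals, which cover counting error only, were 4.41% to 4.61% and 21.5% to 21.8% by counts and 3.53% to 4.35% and 18.3% to 19.4% by estimated molecules. Over all 23 libraries it was listed in 3, the other being a BGB-283 library of D4, where it reached 13.0%. It was therefore not confined to combination libraries.

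Of the 8 large TRB clonotypes of combination replicate 2, 1 was listed in combination replicate 1 and 7 were listed in none of the other 5 libraries. Around this receptor, 36 clonotypes that differ from it by 1 residue, with the same V, J and length, were listed in the 6 libraries. Positions are counted from 1 at the first CDR3 residue. The relative with S5L, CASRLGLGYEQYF, was large in BGB-283 replicate 2 at 1.34% and had 22 counts in combination replicate 2.

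An alpha chain was also large in combination replicates 1 and 2. The TRAV4N-3 and TRAJ12 clonotype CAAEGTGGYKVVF took 1.78%, 8.54% and 0% of TRA counts in combination replicates 1 to 3, against 0%, 0.711% and 0% in BGB-283 replicates 1 to 3. It was listed in 4 of 23 libraries, the remaining one being a BGB-283 library of D4 at 3.08%. In combination replicate 2 it ranked behind 2 other TRA clonotypes. BGB-283 replicate 2, which held the alpha chain at 0.711%, was also the library with the S5L relative of the TRBV3 receptor as a large clone. Whether these chains came from the same cells was not measured.

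The remaining TRA clonotypes large in 2 libraries all used TRAV7D-2. With TRAJ37, a CDR3 of 14 residues took 1.58%, 0.226% and 0% in combination libraries, against 0%, 2.82% and 0% in BGB-283 libraries, and it was listed in 9 of 23. In the 6 libraries 18 clonotypes differed from it by 1 residue, 9 of them at position 5. The relative with G5K took 1.63% in combination replicate 2. That with G5R took 1.67% in the same library, and that with G5I took 1.37% in BGB-283 replicate 1.

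With TRAJ34, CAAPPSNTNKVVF was listed in BGB-283 libraries alone among the 6, at 1.31% in replicate 1 and 2.89% in replicate 2. It reached 13.6% in a control library of D4. With TRAJ5, a CDR3 of 15 residues was listed in combination libraries alone among the 6, at 2.64% in replicate 2 and 1.93% in replicate 3, and in 6 of all 23.

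**Figure D3:**
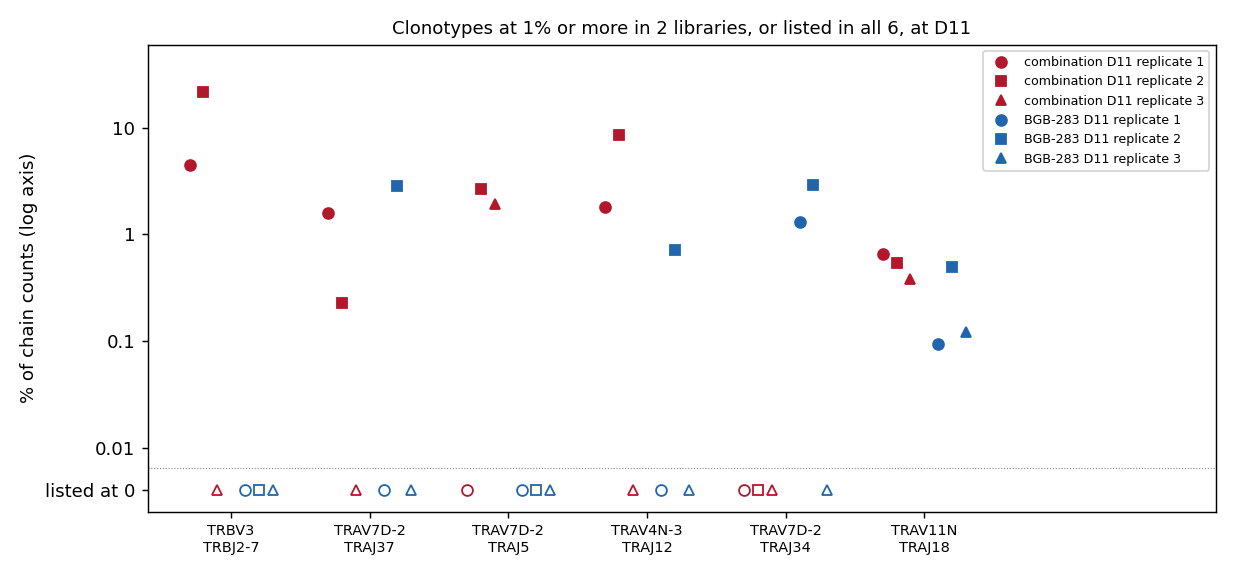
Share of chain counts (log axis) of the clonotypes large in 2 of the 6 libraries or listed in all 6, named by V and J segment, with 1 point per library. Open points on the lowest line are libraries where the clonotype is listed at 0. The TRBV3 clonotype is at 4.51% and 21.6% in combination replicates 1 and 2 and at 0 in the other 4 libraries.

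The clonotype listed in all 6 libraries was the alpha chain of invariant natural killer T (iNKT) cells, T cells that recognise lipids and carry an alpha chain that hardly varies. It joins TRAV11N with TRAJ18 in a CDR3 of 15 residues. Its share of TRA counts was 0.651%, 0.534% and 0.377% in combination libraries, against 0.0938%, 0.493% and 0.120% in BGB-283 libraries. BGB-283 replicate 2 lay among the combination libraries, so the groups overlapped. All TRAV11 copies with TRAJ18 together took 0.972%, 0.652% and 0.427%, against 0.204%, 0.524% and 0.129%. Among counts of clonotypes below 1% these chains took 1.54% ± 0.310 in combination and 0.698% ± 0.364 in BGB-283 libraries, without overlap. As a share of clonotypes, each counted once, they took 0.492% ± 0.213 and 0.280% ± 0.0933, with overlap. Those with the CDR3 listed in all 6 took 0.130% ± 0.0459 and 0.218% ± 0.145 of clonotypes, with overlap. Other lists also lacked overlap on 1 scale each. These were the TRBJ1 and TRBJ2 clusters with large clonotypes left out, the Vbeta5 segments by counts and the TRAV14 family by clonotypes. None of these shares was tested. The alpha chain of mucosal-associated invariant T cells, TRAV1 with TRAJ33, was listed at 0 in all 6 libraries.

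No TRB clonotype was listed in all 3 libraries of one group and in none of the other. Of 8222 TRA clonotypes in the 6 libraries, 6 were listed in all 3 combination and 0 BGB-283 libraries, and 0 the other way round. Of the 5 with the highest mean share, TRAV5D-4V5N-4 with TRAJ15, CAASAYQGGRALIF, took 1.36%, 0.600% and 0.0292%. TRAV7D-3 with TRAJ21, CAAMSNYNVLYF, took 0.0474%, 0.0234% and 0.378%. TRAV7D-2 with TRAJ21, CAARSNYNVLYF, took 0.122%, 0.00965% and 0.0536%. These 3 were also listed outside the combination group among the 23 libraries. The remaining 2, TRAV7-3V7D-3 with TRAJ15, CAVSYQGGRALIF, and TRAV7N-6 with TRAJ22, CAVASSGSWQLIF, were listed in 3 of 23 libraries, and their shares ran from 0.00417% to 0.0838%. These were 1 to 9 estimated molecules per library, so absence from a shallower library says little. The combination group also held more clonotypes, 5749 against 2645 TRA clonotypes listed. Those listed in 2 or more libraries of their group numbered 113 against 38.

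Segment use was then compared by summing the counts of each V or J segment and fitting edgeR's quasi-likelihood model. At an adjusted p of 0.05 the calls were 0 of 24 TRBV, 0 of 12 TRBJ, 0 of 118 TRAV and 0 of 41 TRAJ segments (0.0% each). At an unadjusted p under 0.05 there were 1 TRBV (4.17%), 3 TRBJ (25%), 9 TRAV (7.63%) and 5 TRAJ segments (12.2%). DESeq2 called 0 of 23 TRBV, 2 of 12 TRBJ (16.7%), 3 of 110 TRAV (2.73%) and 3 of 39 TRAJ segments (7.69%), and at an unadjusted p under 0.05 it had 2 (8.7%), 6 (50%), 15 (13.6%) and 7 (17.9%). Differences between the D11 and D4 contrasts also passed for 0 segments, with 3, 1, 9 and 3 at an unadjusted p under 0.05. On simulated data a change of 16-fold was recovered for 68% of TRBV, 100% of TRBJ, 0.847% of TRAV and 85% of TRAJ segments changed, and a change of 4-fold for 0%, 50%, 0% and 5%. False calls among unchanged segments were 1 of 50 TRBJ at each fold and 2 of 165 TRAJ at 16-fold, and 0 otherwise. The simulation drew segment counts with 1 spread per class and no clones, so these rates need not hold for the data.

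The lowest adjusted p belonged to 3 segments of the TRBJ1 cluster, the J segments next to the first of the D segments in the beta locus. TRBJ1-3 took 2.65%, 2.46% and 0.956% of TRB counts in combination libraries, against 3.09%, 21.4% and 5.15% in BGB-283 libraries. Every combination library lay below every BGB-283 library, as for 1 of 12 TRBJ segments (8.33%), with another 1 of 12 above (8.33%). The means were 2.02% ± 0.927 and 9.88% ± 10.02 (log2 -2.29, SE 0.81, edgeR adjusted p = 0.0616).

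TRBJ1-5 took 1.503%, 1.40% and 0.927%, against 12.8%, 6.30% and 0.219% (log2 -2.34, SE 0.94, edgeR adjusted p = 0.0616). TRBJ1-4 took 4.30%, 2.96% and 4.37%, against 19.1%, 2.33% and 14.6% (log2 -1.63, SE 0.66, edgeR adjusted p = 0.0616). For both the groups overlapped, since 1 BGB-283 library was below the combination libraries. DESeq2 called TRBJ1-3 (adjusted p = 0.00419) and TRBJ1-5 (adjusted p = 0.0423). In edgeR TRBJ1-3 passed without BGB-283 replicate 1 (-2.71) or 3 (-2.60), TRBJ1-5 without BGB-283 replicate 3 (-2.90) and TRBJ1-4 without BGB-283 replicate 2 (-2.12). The differences were smaller for TRBJ1-3 without BGB-283 replicate 2 (-1.03), and for TRBJ1-5 (-1.35) and TRBJ1-4 (-1.13) without BGB-283 replicate 1, and none of these 3 passed.

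Each of these segments was used by large clones of BGB-283 libraries. The largest TRBJ1-3 clonotype took 18.3% of TRB counts in BGB-283 replicate 2, the largest TRBJ1-5 clonotype 11.8% in BGB-283 replicate 1, and the largest TRBJ1-4 clonotype 15.5% and 11.5% in BGB-283 replicates 1 and 3. Of the large TRB clonotypes in BGB-283 libraries, 2 used TRBJ1-3, 2 used TRBJ1-5 and 3 used TRBJ1-4, whereas of those in combination libraries 1 used TRBJ1-4 and the largest clonotype with TRBJ1-3 or TRBJ1-5 reached 0.55%. With large clonotypes left out the log2 differences were -0.42, 0.41 and 0.20 for TRBJ1-3, TRBJ1-5 and TRBJ1-4. With each clonotype counted once they were -0.26, 0.42 and -0.12.

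The whole TRBJ1 cluster took 20.8%, 16.4% and 45.8% of TRB counts in combination libraries, against 45.1%, 50.5% and 25.3% in BGB-283 libraries. Combination replicate 3 lay with the higher BGB-283 libraries. TRBJ1-1 took 36.003% there, and its largest clonotype was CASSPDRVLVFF at 24.1%. By clonotypes counted once the cluster took 29.5%, 30.01% and 32.8%, against 34.2%, 31.1% and 30.7%. With large clonotypes left out it took 33.1% ± 0.614 in combination and 30.4% ± 1.70 in BGB-283 libraries, with every combination library above every BGB-283 library and no test. Of its 6 segments 2 had a log2 value above 0 and 0 passed, with a median of -1.28, and of the 6 of the TRBJ2 cluster 5 were above 0 and 0 passed, with a median of 0.37. Over all 12 TRBJ segments 7 were above 0 (58.3%) with a median of 0.12.

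**Figure D4:**
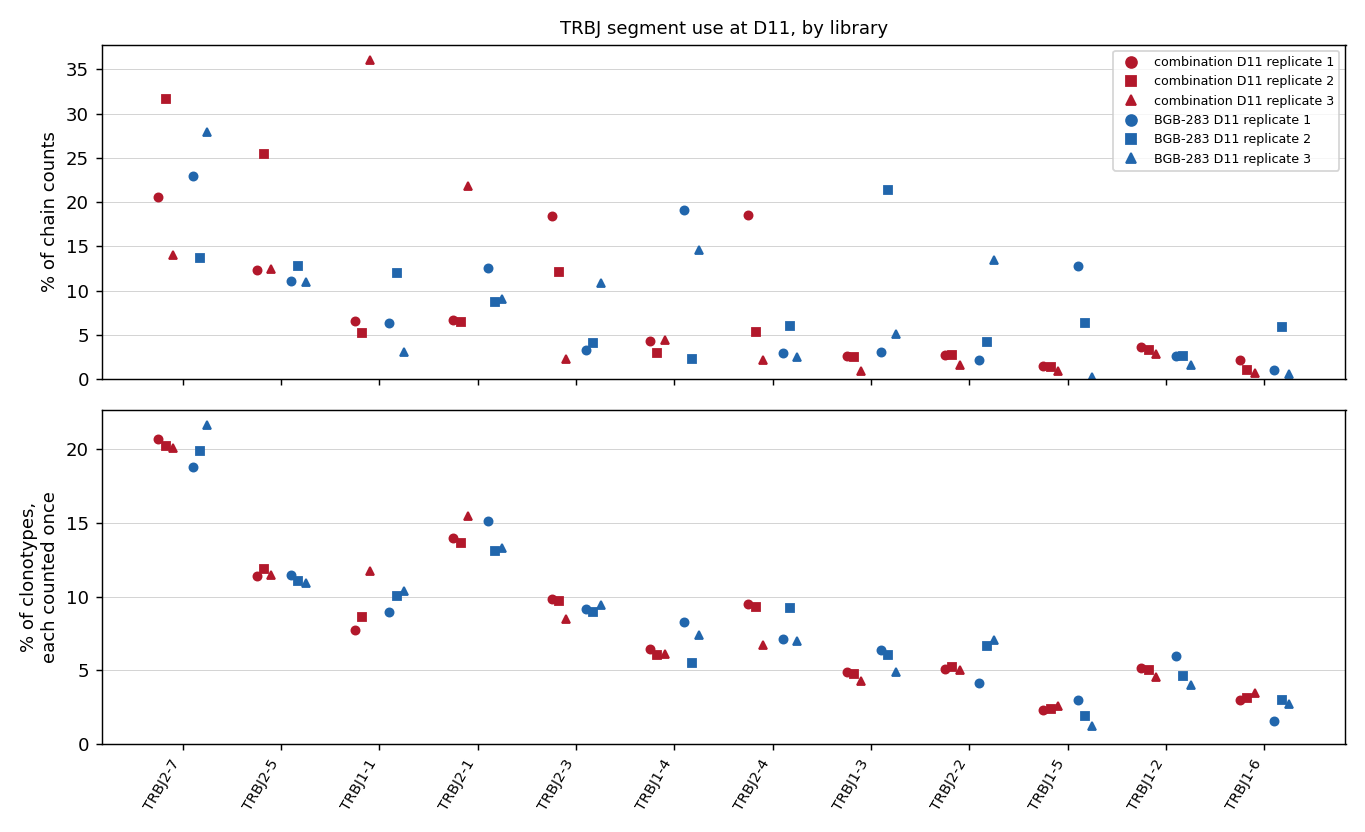
TRBJ segment use as a share of TRB counts (top) and as a share of clonotypes each counted once (bottom), with 1 point per library and segments ordered by mean share. The points spread widely by counts, such as TRBJ1-3 at 21.4% in BGB-283 replicate 2, and lie close together when each clonotype counts once.

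Among TRBV segments TRBV23 had the lowest unadjusted p. It took 0.162%, 0.0740% and 9.17% in combination libraries, against 0.352%, 0.174% and 0.129% in BGB-283 libraries. Combination replicate 3 alone was high, and 1 clonotype, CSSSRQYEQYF, took 8.81% there. The log2 difference was 3.85 (SE 1.84, edgeR adjusted p = 0.460), and it was -0.89 without that library. It passed in a fit of the 6 libraries alone (adjusted p = 0.00552, edgeR).

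TRBV3 took 9.87%, 35.5% and 10.9% of TRB counts in combination libraries, against 3.39%, 7.86% and 10.1% in BGB-283 libraries (18.8% ± 14.5 and 7.11% ± 3.40, log2 1.40, SE 0.71, edgeR adjusted p = 0.460). Combination replicate 2 stood highest, where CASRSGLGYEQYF took 21.6% and a second TRBV3 clonotype, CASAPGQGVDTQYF, took 8.32%. Without that library the log2 difference was 0.55. Counted once per clonotype, TRBV3 took 8.81% ± 1.23 and 9.07% ± 1.57.

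TRBV13-2 took 19.3%, 3.08% and 1.47%, against 2.09%, 2.82% and 5.54% (log2 1.19, edgeR adjusted p = 0.650), with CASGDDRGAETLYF at 13.8% in combination replicate 1, and -0.61 without that library. TRBV12-1 took 5.63%, 3.23% and 1.22%, against 2.97%, 23.8% and 7.37% (log2 -1.76, edgeR adjusted p = 0.460), and the log2 difference was -0.62 without BGB-283 replicate 2. TRBV12-2 took 2.62%, 2.09% and 2.06%, against 8.68%, 3.21% and 2.85% (log2 -1.12, SE 0.74, edgeR adjusted p = 0.650), and -0.43 without BGB-283 replicate 1. TRBV12-2 was the only one of 24 TRBV segments with every combination library below every BGB-283 library (4.17%), and 0 of 24 were above (0.0%).

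The most used TRBV segments were spread widely within groups. TRBV19 took 11.1%, 6.63% and 40.5% in combination libraries, against 30.7%, 8.86% and 9.58% in BGB-283 libraries. TRBV16 took 8.12%, 17.6% and 9.94%, against 8.57%, 16.04% and 44.9% (log2 -0.97, edgeR adjusted p = 0.650), and the log2 difference was -0.05 without BGB-283 replicate 3. TRBV29 took 19.4%, 3.84% and 1.36%, against 16.5%, 3.84% and 2.14%. In each a high value stood in a library whose largest or next largest clonotype used that segment, such as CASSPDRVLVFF for TRBV19 in combination replicate 3.

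With each clonotype counted once, TRBV16 took 12.6%, 13.6% and 14.4% of clonotypes in combination libraries, against 15.1%, 17.3% and 19.2% in BGB-283 libraries. It was the only TRBV segment of 24 without overlap on that scale (4.17% below, 0% above), where 0 of 12 TRBJ segments were, with a log2 difference of -0.37 (edgeR adjusted p = 0.0938). TRBV29 took 18.9%, 14.4% and 11.4% of clonotypes, against 11.2%, 11.99% and 8.95%, with a log2 difference of 0.50 (edgeR adjusted p = 0.0938).

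**Figure D5:**
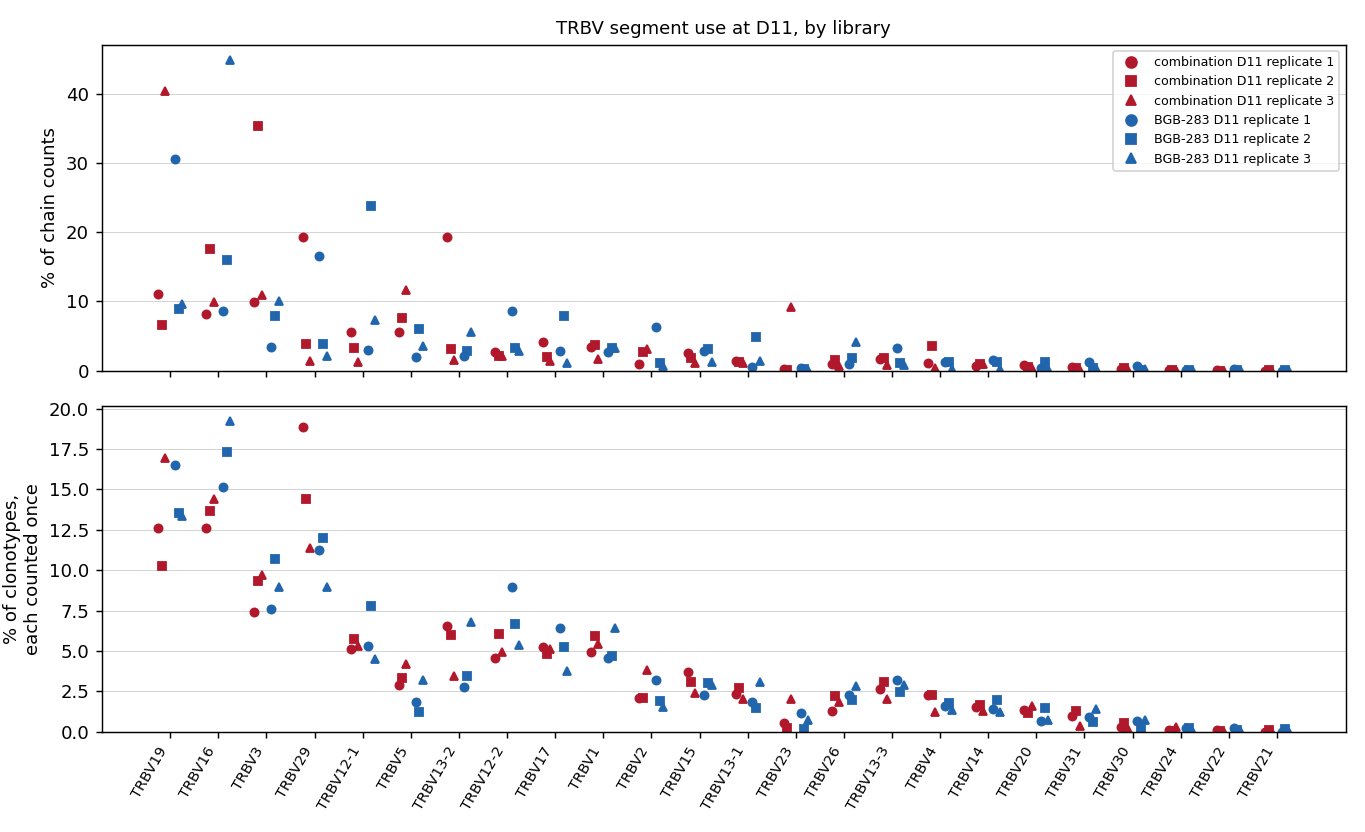
TRBV segment use as a share of TRB counts (top) and of clonotypes each counted once (bottom), with 1 point per library and segments ordered by mean share. By counts TRBV19 reaches 40.5% in combination replicate 3 and TRBV16 44.9% in BGB-283 replicate 3, while by clonotypes no segment exceeds 19.2%.

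Groups of TRBV segments were described by their shares, without a test. The Vbeta8 family (TRBV13-1 to TRBV13-3) took 22.4%, 6.19% and 3.36% in combination libraries, against 5.82%, 8.75% and 7.71% in BGB-283 libraries, with 1 of 3 segments above 0 and a median log2 of -0.27. The Vbeta5 segments TRBV12-1 and TRBV12-2, which in many mouse strains are lost to endogenous viral superantigens, took 8.24%, 5.31% and 3.27%, against 11.7%, 27.0% and 10.2%, with 0 of 2 above 0 and a median of -1.44. The V segments that pair with the iNKT alpha chain (the Vbeta8 family, TRBV29 and TRBV1) took 45.1%, 13.8% and 6.42%, against 24.96%, 15.8% and 13.1%, with 2 of 5 above 0 and a median of -0.05. Over all 24 TRBV segments 7 were above 0 (29.2%), with a median of -0.36, and 0 passed.

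Among alpha J segments TRAJ39 had the lowest unadjusted p. It took 1.29%, 1.40% and 29.4% of TRA counts in combination libraries, against 0.507%, 1.03% and 0.196% in BGB-283 libraries, without overlap (log2 4.21, SE 1.28, edgeR adjusted p = 0.114). The clonotype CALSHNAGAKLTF took 28.4% in combination replicate 3, and without that library the log2 difference was 1.22. DESeq2 called TRAJ39 (adjusted p = 0.000189), and edgeR did so without combination replicate 1 (4.74) or 2 (4.73). TRAJ27 took 2.91%, 3.85% and 14.2%, against 1.26%, 0.907% and 2.05% (log2 2.31, SE 0.91, edgeR adjusted p = 0.272). A TRAV6N-7 clonotype of 15 residues took 11.8% in combination replicate 3. The log2 difference of TRAJ27 was 1.27 without that library and -0.031 with large clonotypes left out. TRAJ32 took 0.926%, 0.569% and 3.95%, against 0.138%, 0.406% and 0.474% (log2 2.42, edgeR adjusted p = 0.272), and 1.14 without combination replicate 3. In total 4 of 41 TRAJ segments had every combination library above every BGB-283 library (9.76%), and 0 had every one below (0.0%). With each clonotype counted once the numbers were 5 above (12.2%) and 1 below (2.44%).

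On the lower side TRAJ13 took 2.01%, 0.522% and 0.599%, against 0.963%, 0.985% and 23.4% (log2 -3.02, edgeR adjusted p = 0.272). Its high value was the clonotype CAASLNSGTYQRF, at 23.01% in BGB-283 replicate 3, and without that library the log2 difference was 0.10. TRAJ40 took 1.49%, 0.881% and 0.550%, against 1.28%, 1.03% and 15.1% (log2 -2.58, edgeR adjusted p = 0.272), and DESeq2 called both (adjusted p = 0.0154 each). Without BGB-283 replicate 3 the edgeR difference of TRAJ40 was -0.25. TRAJ6 took 0.394%, 3.30% and 0.149%, against 26.7%, 0.369% and 0.391%, with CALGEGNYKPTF at 25.4% in BGB-283 replicate 1 (log2 -2.84, edgeR adjusted p = 0.342), and 1.75 without that library.

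Other much used J segments were highest in 1 or 2 libraries, where large clonotypes used them. TRAJ23 and TRAJ5 were also used by large clonotypes in all 3 combination libraries. TRAJ48 took 17.8%, 11.1% and 0.0807%, against 3.79%, 0.795% and 0.314% (log2 2.56, edgeR adjusted p = 0.342), through the clonotypes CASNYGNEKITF at 16.2% in combination replicate 1 and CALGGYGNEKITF at 10.2% in combination replicate 2, and the log2 difference was -0.074 with large clonotypes left out. TRAJ22 took 3.61%, 4.01% and 2.12%, against 3.29%, 19.3% and 1.67%, TRAJ5 1.70%, 2.84% and 3.33%, against 24.6%, 0.138% and 2.30%, and TRAJ23 5.12%, 6.79% and 3.84%, against 2.71%, 2.67% and 15.2%. The J segments numbered 39 to 58, which lie nearest the V segments, took 29.98%, 17.4% and 47.8%, against 9.9997%, 12.7% and 27.2%. Those numbered 2 to 18 took 32.3%, 28.2% and 12.5%, against 62.8%, 19.8% and 35.3%. Those numbered 21 to 38 took 37.7%, 54.4% and 39.6%, against 27.2%, 67.5% and 37.5%. The median log2 value was 0.29 for segments 39 to 58, with 8 of 13 above 0, 0.59 for segments 2 to 18, with 7 of 13 above 0, and -0.35 for segments 21 to 38, with 6 of 15 above 0. Over all 41 TRAJ segments 21 were above 0 (51.2%), with a median of 0.21, and 0 passed.

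TRAV7N-6 had the lowest unadjusted p among TRAV segments. It took 0.248%, 8.68% and 0.219% in combination libraries, against 0.0301%, 0.0575% and 0.153% in BGB-283 libraries, without overlap (log2 5.24, SE 1.54, edgeR adjusted p = 0.269). Its high value stood in combination replicate 2, where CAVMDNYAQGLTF with TRAJ26 took 4.202%, and without that library the log2 difference was 1.54. By clonotypes it took 1.71% ± 1.09 and 0.494% ± 0.272. DESeq2 called it (adjusted p = 0.0141). Of 118 TRAV segments 9 had every combination library above every BGB-283 library (7.63%) and 5 every one below (4.24%), and with each clonotype counted once 11 (9.32%) and 3 (2.54%).

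TRAV12D-2 took 17.3%, 0.473% and 2.58%, against 0.549%, 0.930% and 0.9497% (log2 3.06, edgeR adjusted p = 0.458), with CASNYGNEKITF at 16.2% in combination replicate 1. The log2 difference was 0.91 without that library and -0.68 with large clonotypes left out. TRAV6N-7 took 5.94%, 5.28% and 12.6%, against 2.78%, 0.470% and 1.25%, without overlap (log2 2.41, SE 1.00, edgeR adjusted p = 0.472). A large clonotype with this segment stood in all 3 combination libraries, a different one in each, and 1 in BGB-283 libraries. With large clonotypes left out the log2 difference was -0.19. TRAV14-2V14N-2 took 3.05%, 1.63% and 2.56%, against 3.12%, 4.78% and 26.6%, without overlap (log2 -2.25, SE 0.94, edgeR adjusted p = 0.472). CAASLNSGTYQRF took 23.01% in BGB-283 replicate 3, and without that library the log2 difference of TRAV14-2V14N-2 was -0.71. By clonotypes the segment took 3.55% ± 0.806 and 5.74% ± 0.729. TRAV13-2V13N-2 took 1.28%, 0.359% and 0.648%, against 1.17%, 8.08% and 3.98% (log2 -2.53, edgeR adjusted p = 0.489).

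The rarest of the segments named were TRAV7-3 and TRAV20. TRAV7-3 took 0.0133%, 0.201% and 0.0448% in combination libraries and was listed at 0 in all BGB-283 libraries. TRAV20 was listed at 0 in all combination libraries and took 0.0913% in BGB-283 replicate 1 alone. DESeq2 called TRAV7-3 higher (adjusted p = 0.0392) and TRAV20 lower (adjusted p = 2.72e-05), and edgeR called neither (adjusted p = 0.458 and 0.489).

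TRAV6D-5V6N-5 took 6.60%, 1.34% and 29.3%, against 28.1%, 2.38% and 7.46%, and TRAV7D-2 took 6.05%, 12.8% and 4.33%, against 32.3%, 11.3% and 1.83%. Both were used by large clones of both groups. The TRAV7 family took 10.2%, 36.1% and 12.1%, against 39.2%, 21.3% and 18.1%, and 8 of its 18 tested segments were above 0, with a median of -0.06. The TRAV14 family took 9.41%, 5.58% and 8.63%, against 6.30%, 21.7% and 28.7%, with 3 of 11 above 0 and a median of -0.55. Counted once per clonotype, TRAV14 took 14.8%, 13.3% and 12.3%, against 16.9%, 18.5% and 16.9%, without overlap and without a test. Over all 118 TRAV segments 58 were above 0 (49.2%), with a median of 0.00, and 0 passed. Since the mouse alpha locus holds duplicated V segments of almost the same sequence, counts may be split between or merged under TRAV names.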

How the data were processed

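Receptor sequences were read from total RNA with QIAGEN's QIAseq immune repertoire RNA library kit, per the labels' protocols. The authors deposited 1 table of counts in 23 libraries, with a row for each clonotype, used here as whole numbers with no scaling. The aligner, the caller and any filters were not given in the sources used here, while submitters' processing notes name the build GRCh38, a human one, for these mouse samples. The labels name gamma and delta chains as well, and alpha and beta rows alone were analysed. Of 64710 entries, 274 with an unresolved residue (0.0227% of counts) were left out. Library totals ran from 70038 to 798622. The libraries compared, the lists and the thresholds were chosen with earlier results of these data known.

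Library measures were compared by exact two-sided permutation test of 3 against 3 libraries (20 assignments), and the D11 difference with the D4 difference over 400 assignments, with Benjamini-Hochberg adjustment over 14 measures. Equal depth was the mean of 100 random draws. Segments were fitted with edgeR 4.0.16 (limma 3.58.1, R 4.3.3), quasi-likelihood, all 23 libraries in 8 groups, the chain total as library size and no further scaling. Adjusted p-values cover all segments of a class, and DESeq2 1.42.0 was an alternative. The edgeR fit was tested on simulated data. Named segments were the 3 with the smallest p in each direction and the 5 with the highest mean share in each class. Named clonotypes were the largest of each library and those shared as described. Python 3.11.15, numpy 2.4.6 and pandas 2.3.3 did the rest. Of the segment names, 24 of 24 TRBV, 12 of 12 TRBJ, 64 of 143 TRAV and 41 of 41 TRAJ matched a RefSeq symbol. Over 66 clonotype shares the 95% Wilson interval was at most 0.277 percentage points to either side by counts and 1.18 by estimated molecules.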

Additional observations from a re-analysis of the deposited data

How the results depend on the processing

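Of 150 alternatives for the D11 library measures, 14 turned the direction and 136 are counted as having kept it. The number of large TRA clonotypes differed by 0 in the main setting, so its alternatives count as kept whatever their sign. They ran from -0.667 to 4.0 with all libraries, and from -1.83 to 1.17 with 1 library left out in turn. That 0 of the 150 passed 0.05 was fixed by the design, since the smallest p these tests allow is 0.1 or more. TRA clonality turned to -0.0185 in estimated molecules and -0.0128 by a Simpson index. TRA CDR3 length turned to 0.000867 with CDR3 alone and 0.0360 by counts, and its D11 minus D4 value to 0.00876 by counts. At a 0.5% threshold the D11 minus D4 value of large TRA clonotypes was 1.67. With 1 library left out in turn, the differences ran from -2.95 to 8.68 points for the TRB 10 largest, -3.67 to 0.833 for large TRB clonotypes, -0.0701 to 0.0384 for TRB length, -0.0293 to 0.0514 for TRA clonality, -10.2 to 1.06 points for the TRA 10 largest, -0.0732 to 0.0355 for TRA length and -0.033 to 0.75 (log2) for TRA counts. With 6 libraries only, TRBV calls were 1. DESeq2 called 2 TRBJ, 3 TRAV and 3 TRAJ segments. Leaving out 1 library gave 0 to 2 TRBJ calls, 0 to 1 TRAJ calls and 0 to 1 TRAJ calls for D11 minus D4. With each clonotype counted once, D11 minus D4 had 1 TRAV call. Of 506 alternatives for 36 named segments, 41 turned the sign. With each clonotype counted once the log2 values were TRBV3 -0.085, TRBV19 -0.14, TRBJ1-1 -0.16, TRBJ1-5 0.42 and TRAV6D-5V6N-5 0.043. With large clonotypes left out, an alternative chosen after seeing the data, they were TRBV13-2 -0.015, TRBJ1-1 -0.0015, TRBJ2-4 -0.29, TRBJ1-5 0.41, TRBJ1-4 0.20, TRBJ2-7 -0.14, TRBJ2-1 -0.45, TRAV12D-2 -0.68, TRAV6N-7 -0.19, TRAJ27 -0.031, TRAJ13 0.16 and TRAJ48 -0.074. With 1 library left out they ran from -0.89 to 4.42 for TRBV23, -0.61 to 1.69 for TRBV13-2, -0.88 to 1.07 for TRBV19, -1.53 to 1.45 for TRBV29, -0.28 to 1.75 for TRBJ1-1, -0.041 to 1.65 for TRBJ2-4, -0.32 to 0.28 for TRBJ2-7, -0.62 to 0.50 for TRBJ2-1, -1.67 to 1.34 for TRAV6D-5V6N-5, -1.55 to 0.24 for TRAV7D-2, -3.92 to 0.10 for TRAJ13, -5.08 to 1.75 for TRAJ6, -0.77 to 0.96 for TRAJ23, -2.36 to 1.103 for TRAJ5 and -1.80 to 0.39 for TRAJ22. The causes were not tested. With the replicate number as a block, TRB clonotypes differed by 1.43 (p = 0.25, exact permutation test, the smallest p that 3 blocks allow), 0 segments were called, and TRBV19 was -0.16 and TRBV29 -0.0095. Segment deviations of same-numbered libraries correlated at 0.0232, 0.0971 and 0.0225, so the numbers were not taken to pair libraries. Depth ran down to 3466 estimated TRB molecules in the shallowest library. At equal depth the log2 difference in TRB clonotypes was 1.35 by counts and 0.68 by estimated molecules. How far depth limits rare clonotypes beyond this was not tested.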

Other observations

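Length, hydropathy and charge of the CDR3 were described by 8 measures per chain, of which mean length alone was tested. TRA charge is given here because it alone, among the 8 measures of each chain, had groups without overlap. It was picked from these same data for that reason, so its lack of overlap is not a test. Leaving off 3 residues at each end, the mean net charge over TRA clonotypes, each counted once, was 0.478 ± 0.0188 in combination and 0.373 ± 0.0311 in BGB-283 libraries (SD, n = 3 each), without overlap. TRB gave -0.665 ± 0.0114 in combination and -0.666 ± 0.0390 in BGB-283 libraries. TRA hydropathy of the same residues (Kyte-Doolittle scale) was -1.44 ± 0.0214 in combination and -1.42 ± 0.0599 in BGB-283 libraries, with overlap. By counts, mean TRB length was 13.7 ± 0.647 residues in combination and 14.01 ± 0.140 in BGB-283 libraries.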
